A study of Rattus norvegicus with 10 samples.

Results

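Among the methylation regions deposited for the arcuate nucleus of rat offspring, 5 genes were grouped because a region of each was lower after a paternal high-fat diet. They are Ntrk2, Maff, Arhgef11, Rtn4rl1 and Lbx1. All regions that the deposited table names for these genes were used, which gave 8 regions of 8957, with 4 at Lbx1 and 1 at each other gene. The genes were picked from the group difference itself in these animals, by the direction and the q-value in the authors' deposited table, so the differences at their regions are a description and are given without a test. The group name held for 7 of the 8 regions. The remaining region, 14120 bases from the Lbx1 start site, was higher after paternal high-fat.

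The arcuate nucleus is a cell group at the base of the hypothalamus where hormones such as leptin act on neurons that set appetite. Cytosine methylation at CpG sites is usually low at active, CpG-rich promoters and high in most other parts of the genome, and dense promoter methylation is known to accompany gene silencing. Ntrk2 encodes TrkB, a receptor tyrosine kinase that binds brain-derived neurotrophic factor, and loss of TrkB signalling in the mouse hypothalamus causes overeating and obesity. Maff encodes a small Maf protein, a basic leucine zipper factor without its own activation domain that pairs with CNC factors at stress-response genes. Arhgef11 encodes a guanine nucleotide exchange factor that links G12/13-coupled receptors and plexin-B to the small GTPase RhoA. Rtn4rl1 encodes a lipid-anchored relative of the Nogo receptor at the neuronal surface. Lbx1 encodes a homeobox factor known in the mouse for specifying dorsal spinal cord neurons and migrating muscle precursors.

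The animals were 10 Wistar rat offspring, 5 with fathers fed chow (paternal chow) and 5 with fathers fed a high-fat diet (paternal high-fat), and all mothers were fed chow. All offspring, in both groups, were raised on chow and were moved to a high-fat diet at postnatal day 35; tissue was taken at postnatal day 70, so no group stayed on chow. Methylation was read by reduced representation bisulfite sequencing, which samples CpG-rich restriction fragments, and the table gives 1 average level per region and animal. The labels state neither sex nor litter nor sire, so p-values over these animals measure the spread between samples that may share a father. The file holds no RNA levels, so the tissue label could not be checked against expressed markers. In tissue DNA a different mix of cells and a different methylation level within the cells cannot be told apart.

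Read depth came with none of the levels, so it is unknown here and no counting interval is given. The mean over all regions was 5.72% to 6.46% in the paternal chow animals and 6.48% to 8.24% in the paternal high-fat animals, so the 5 genes lay against the prevailing direction: only 2600 of 8957 regions (29%) averaged lower after paternal high-fat. The paternal chow animal 4HFB lacked a level at 82 regions, against 0 to 19 in the other animals. None of the 80 levels at the 8 regions was missing. With limma on all 8957 regions no region passed (0 at an adjusted p below 0.05, which is 0%; 1875 at an unadjusted p below 0.05). All of these regions had been called by metilene between the same groups, with a deposited difference of at least 1 point. The means and the prevailing direction therefore describe a selected set, and p-values over it lack their usual meaning.

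The promoter sequences of Maff and Arhgef11 are shown because the measured regions lay at or near annotated start sites and because CpG density sets what the assay can read there. They are the 250 bases before the RefSeq start site (build GRCr8, plus strand, 5′ to 3′), at chr7:112792537-112792786 for Maff and chr2:175372040-175372289 for Arhgef11. Capitals mark each CpG. These windows are not the measured regions themselves. By the start sites annotated in the methylation table, the Arhgef11 region lay at −897 bases, outside the 250 bases before the start. The Maff region lay at +125 bases, in intron 1. The methylation table also uses coordinates that differ from GRCr8, so the windows could not be placed exactly against the regions.
Maff: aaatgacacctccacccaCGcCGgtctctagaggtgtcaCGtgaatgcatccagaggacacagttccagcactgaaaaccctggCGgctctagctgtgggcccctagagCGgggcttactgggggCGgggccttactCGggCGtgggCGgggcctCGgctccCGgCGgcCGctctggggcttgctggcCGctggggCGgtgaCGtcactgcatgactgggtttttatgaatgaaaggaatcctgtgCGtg
Arhgef11: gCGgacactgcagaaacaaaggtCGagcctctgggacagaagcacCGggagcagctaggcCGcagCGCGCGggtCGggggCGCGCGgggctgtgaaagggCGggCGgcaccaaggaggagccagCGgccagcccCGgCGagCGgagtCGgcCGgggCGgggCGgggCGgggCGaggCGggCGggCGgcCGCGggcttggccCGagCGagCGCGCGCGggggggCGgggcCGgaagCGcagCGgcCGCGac
The Maff window held 17 CpGs and the Arhgef11 window 40, and the Lbx1 window, not printed, held 39. The median over 33469 rat promoters of the same length was 5. Fewer CpGs than at Maff were found in 78.1% of them, fewer than at Arhgef11 in 98.8% and fewer than at Lbx1 in 98.6%. Of the 5 genes, 3 had an entry in this table and Ntrk2 and Rtn4rl1 had none.

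3 short motifs that contain a CpG were searched on both strands of these windows. The Maff window held 1 cAMP response element palindrome, TGACGTCA, which begins 51 bases before the start and occurs in 1.59% of the promoters. It also held 1 E-box CACGTG, 213 bases before the start, which occurs in 5.59%, and 3 GC boxes GGGCGG, which occur in 30.5%. The Arhgef11 window held 8 GC boxes and the Lbx1 window 2, with neither of the other motifs. No match overlapped another in the Maff window, while some of the GC boxes at Arhgef11 overlap their neighbours. A match only says that the letters are there.

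At Ntrk2 the region lay in exon 1 of 18, at +221 bases from the annotated start site (ENSRNOG00000018839; chromosome 17, 6244354 to 6244428 in the coordinates of the table), and held 14 CpGs. The paternal chow animals stood at 2.55%, 2.60%, 2.84%, 3.09% and 10.2%. The paternal high-fat animals stood at 0.553%, 0.861%, 1.01%, 1.48% and 1.99%. All paternal high-fat animals were below all paternal chow animals, 4 of the chow animals lay within a narrow band, and 4HFB stood far above them. The means were 1.18% ± 0.563 (SD, n = 5) after paternal high-fat and 4.26% ± 3.35 (SD, n = 5) after paternal chow, a difference of −3.09 points. The gap between the nearest animals of the groups was 0.560 points, and without 4HFB the difference was −1.59 points. In the authors' deposited table the q-value was 0.00170.

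At Maff the region lay in intron 1 of 2, at +125 bases (ENSRNOG00000012886; chromosome 7, 120580733 to 120581002). It held the most CpGs of the 8, 24, in the longest region, 269 bases, and 98.0% of all regions held fewer CpGs. The paternal chow animals stood at 1.47%, 2.78%, 3.98%, 5.90% and 7.62%. The paternal high-fat animals stood at 0.144%, 0.214%, 0.670%, 0.816% and 0.877%. The chow animals were spread evenly, with no animal far from its group, whereas all paternal high-fat animals were under 1%. The means were 0.544% ± 0.343 (SD, n = 5) after paternal high-fat and 4.35% ± 2.45 (SD, n = 5) after paternal chow, so the paternal chow mean was 8.00 times the paternal high-fat mean, the widest ratio among the 8 regions. The groups did not overlap, with 0.595 points between the nearest animals. Without 4HFB, here again the highest, the difference of −3.81 points was −2.99 points, so this region depended least on that animal among the 3 with separate groups. The deposited q-value, from the authors' table, was 0.000101.

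At Arhgef11 the region of 17 CpGs was annotated to the promoter of transcript ENSRNOT00000091336, at −897 bases (ENSRNOG00000015026; chromosome 2, 186979861 to 186979931). The paternal chow animals stood at 2.26%, 2.47%, 2.53%, 2.53% and 13.2%. The paternal high-fat animals stood at 0.173%, 0.267%, 0.420%, 0.902% and 2.02%. The groups did not overlap, but the nearest animals, 22HFB and 6HFB, were only 0.242 points apart, and 4HFB alone stood above 3%. The means were 0.757% ± 0.760 (SD, n = 5) after paternal high-fat and 4.60% ± 4.82 (SD, n = 5) after paternal chow. The difference of −3.84 points was −1.69 points without 4HFB, a smaller value by over 1.5 times. The deposited q-value in the authors' table was 0.000558.

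At Rtn4rl1 the region of 16 CpGs lay at the promoter, at −82 bases (ENSRNOG00000003121; chromosome 10, 62035742 to 62035826). The paternal chow animals stood at 0.794%, 2.95%, 5.00%, 7.0% and 7.11%. The paternal high-fat animals stood at 0.272%, 0.329%, 0.521%, 1.40% and 5.94%. The groups overlapped: 22HFR of the paternal high-fat group lay above 3 of the 5 chow animals, and the chow animal 2HFB lay below 2 of the 5 high-fat animals. The means were 1.69% ± 2.42 (SD, n = 5) after paternal high-fat and 4.57% ± 2.71 (SD, n = 5) after paternal chow, a difference of −2.88 points that was slightly larger than either SD. Without 22HFR it was −3.94 points. The q-value in the authors' deposited table was 0.00196.

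**Figure D1:**
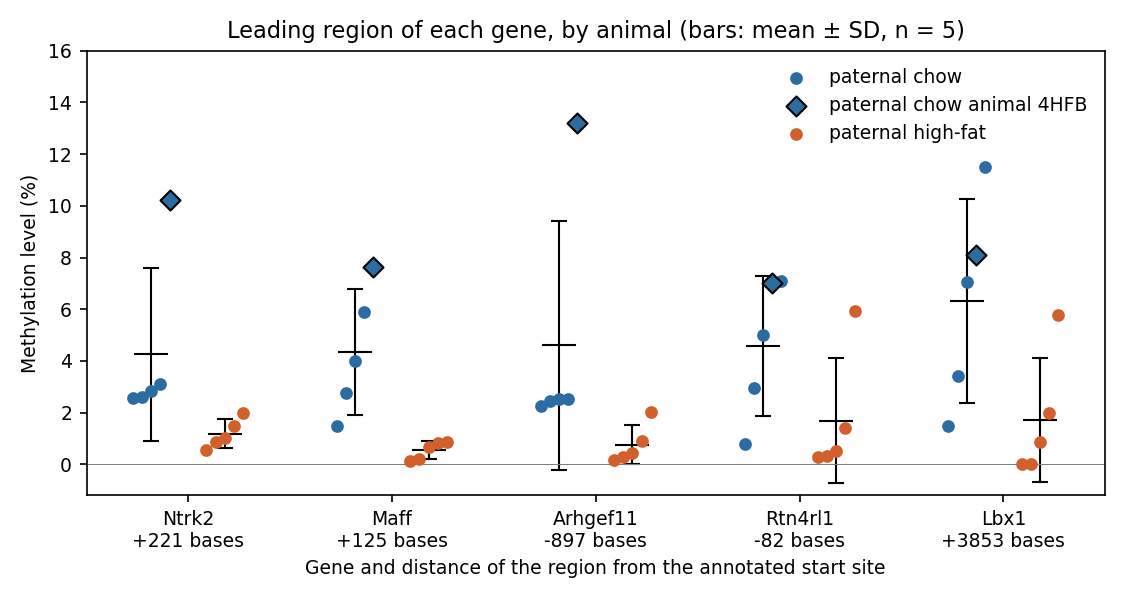
Methylation level (%) of each animal at the region of each gene with the smallest deposited q-value among its lower regions, with the mean ± SD (n = 5) of paternal chow (blue) and paternal high-fat (orange) offspring; a diamond marks 4HFB. The groups are separate at Ntrk2, Maff and Arhgef11 and overlap at Rtn4rl1 and Lbx1, and 4HFB is at 10.2% and 13.2% at Ntrk2 and Arhgef11.

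Lbx1 (ENSRNOG00000025520) was the only one of the 5 genes with several regions, all on chromosome 1 and all downstream of its start site. The region with a small q-value (0.00145 in the authors' deposited table) was intergenic, at +3853 bases, past the end of the gene, and held 21 CpGs (264971212 to 264971346). The paternal chow animals stood at 1.48%, 3.43%, 7.07%, 8.11% and 11.5%. The paternal high-fat animals stood at 0% (listed at 0 in 22HFB and 22HFR), 0%, 0.866%, 1.98% and 5.77%. The groups overlapped: 24HFB, the highest of the high-fat group, lay above the lowest 2 chow animals. The means were 1.72% ± 2.40 (SD, n = 5) after paternal high-fat and 6.32% ± 3.95 (SD, n = 5) after paternal chow. The difference of −4.60 points was the largest in size among the 8 regions, and here 4HFB was not the highest chow animal, a place taken by 6HFB.

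The other 3 Lbx1 regions had a q-value of 1 in the authors' deposited table, a value shared by 8770 of all 8957 regions. The region at the transcription termination site, at +1917 bases (264973197 to 264973233, 10 CpGs), was the most methylated of the 8. Its paternal chow animals stood at 10.1%, 10.1%, 13.2%, 14.5% and 26.5% and its paternal high-fat animals at 7.72%, 9.83%, 11.2%, 14.3% and 14.97%. The groups overlapped almost entirely apart from 4HFB, and the difference of −3.28 points was −0.386 points without that animal. The means were 11.6% ± 3.04 (SD, n = 5) after paternal high-fat and 14.9% ± 6.77 (SD, n = 5) after paternal chow.

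The Lbx1 region in exon 2 of 2, at +1626 bases (264973442 to 264973569, 13 CpGs), lay 209 bases from the one at the termination site. Its paternal chow animals stood at 0.769%, 2.33%, 2.98%, 4.95% and 6.17% and its paternal high-fat animals at 0%, 0.855%, 0.930%, 2.40% and 4.34%. Here 4HFB was the lowest chow animal, not the highest, and the groups overlapped. The means were 1.71% ± 1.71 (SD, n = 5) after paternal high-fat and 3.44% ± 2.14 (SD, n = 5) after paternal chow, a difference of −1.73 points, within the SD of the chow animals, and −1.05 points without 8HFB.

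The intergenic Lbx1 region at +14120 bases (264960965 to 264961058, 12 CpGs) lay in the other direction. Its paternal chow animals stood at 0.357%, 0.494%, 2.17%, 2.20% and 2.55% and its paternal high-fat animals at 1.30%, 2.09%, 2.21%, 2.90% and 5.15%. The groups overlapped, and the medians, 2.21% and 2.17%, were nearly the same. The means were 2.73% ± 1.47 (SD, n = 5) after paternal high-fat and 1.55% ± 1.04 (SD, n = 5) after paternal chow. The difference of 1.17 points was 0.568 points without 24HFB. This region is separated from the lower one at +3853 by 10154 bases.

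**Figure D2:**
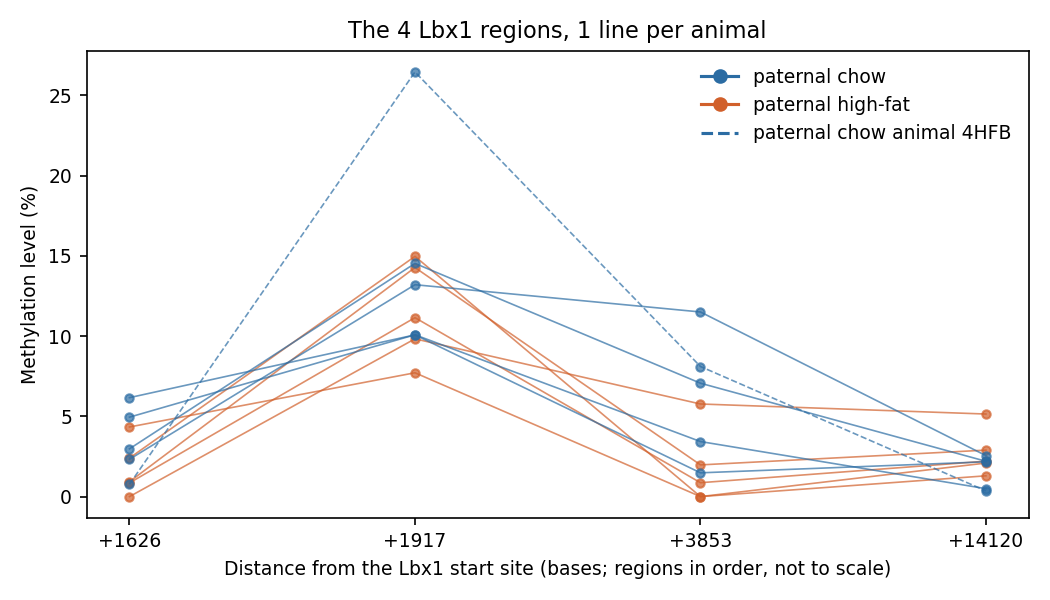
Methylation level (%) at the 4 Lbx1 regions in order of distance from the start site (bases, not to scale), with 1 line per animal, blue for paternal chow and orange for paternal high-fat, dashed for 4HFB. The region at +1917 is the most methylated in every animal, and 4HFB is at 26.5% there and at 0.769% in the region 209 bases away.

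Group separation at the 8 regions can be set beside the whole table. Groups without overlap and a lower paternal high-fat mean were found at 3 of the 8 regions (Ntrk2, Maff and Arhgef11), and at 109 of all 8957 regions (1.22%). Groups without overlap and a higher paternal high-fat mean were found at 0 of the 8, and at 352 of 8957 (3.93%). The q-value in the authors' deposited table was below 0.05 with a lower mean at 5 of the 8, and at 10 of 8957 regions (0.112%). In the other direction it was below 0.05 at 0 of the 8, and at 66 of 8957 (0.737%). These shares follow from how the genes were chosen, and nothing is read from them. Values joined by "against" give paternal high-fat first and paternal chow second. Ranked by deposited q, these 5 regions were at places 2 to 6 of the 10. The region just before them was named for Zfp523, with 0.445% ± 0.400 against 2.69% ± 1.45 (SD, n = 5 each), and the one just after them for Plekhm2, with 1.12% ± 0.514 against 3.45% ± 1.36 (SD, n = 5 each). The remaining 3 of the 10 were named for Ppa2, Fam83d and Obsl1.

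The Mann-Whitney p-value that the authors' deposited table gives for Maff is 9.10e-12. An exact two-sided permutation test on 5 against 5 animals cannot return less than 0.00794, over 252 arrangements. At the 5 regions with a small q the deposited Mann-Whitney p-values all lay below that limit, at 9.10e-12 to 6.85e-09. Of the other 3 Lbx1 regions, the one at +1626 bases also lay below it, with a deposited Mann-Whitney p-value of 0.00158. The remaining 2 had 0.0286 and 0.166 in the authors' deposited table. By number of CpGs, the 5 regions with a small q held 14 to 24 and the other 3, all at Lbx1, held 10 to 13. The median over all regions was 11. Over the 10 lower regions with a q-value below 0.05 in the authors' deposited table it was 22. Regions of Sorcs2 and Rtn4rl2, described below, held 25 CpGs each without a q-value below 0.05 there. A relation between q and the number of CpGs over all regions was not tested.

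The 5 regions with a small q shared a low level in both groups. Paternal chow means lay between 4.26% and 6.32% and paternal high-fat means between 0.544% and 1.72%. The median over all 2600 lower regions was 3.01% in paternal chow and 1.32% in paternal high-fat offspring. Over all 8957 regions it was 1.87% and 2.88%, so a low level was not particular to these 5. Their paternal chow means lay above both paternal chow medians. Distance to the start site was shared less: 4 of the 5 lay within 1000 bases of a start site and that of Lbx1 did not, where 66.4% of all regions did. The SD was larger in the paternal chow group at 7 of the 8 regions, by 7.14 times at Maff, 6.33 times at Arhgef11 and 5.94 times at Ntrk2. Over all 2600 lower regions it was larger in that group at 84.5%, and over all 8957 at 34.8%. Relative to the mean, the chow animals were not always the more variable: the SD was 56.3% of the mean in paternal chow and 63.0% in paternal high-fat offspring at Maff, and 59.3% and 143% at Rtn4rl1.

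The animal 4HFB moved with these results. It was the highest paternal chow animal at 3 of the 5 regions with a small q, and its mean over these 5 was 9.24%, against 2.70% to 5.25% in the other chow animals and 0.476% to 1.84% in the paternal high-fat animals. Across the table, 4HFB was the highest chow animal at 1173 of 2563 lower regions with complete levels (45.8%) and at 1181 of 6275 higher ones (18.8%). The other chow animals were highest at 8.47% to 17.95% of the lower regions. Regions were sorted here by a difference that 4HFB helps to set, so these shares are a description. Without it, 136 of the 2600 lower regions turned higher. The direction at the 8 regions did not change with any animal left out.

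**Figure D3:**
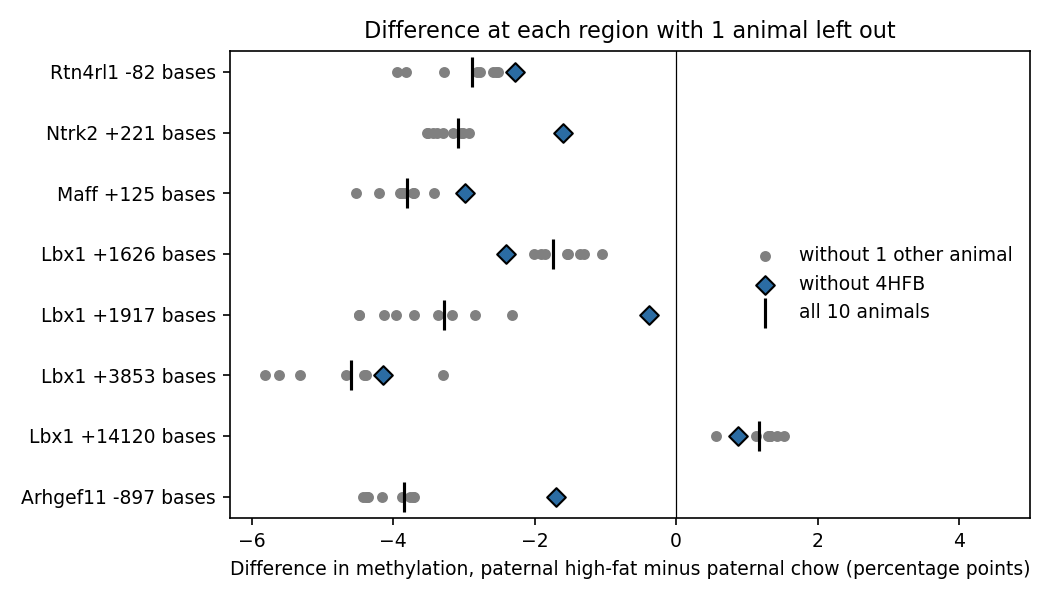
Difference in methylation (paternal high-fat minus paternal chow, percentage points) at each of the 8 regions with all 10 animals (black line), without 4HFB (diamond) and without each other animal (grey). Ntrk2 goes to −1.59, Arhgef11 to −1.69 and the Lbx1 region at +1917 to −0.386 points without 4HFB, and no region crosses 0.

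**Figure D4:**
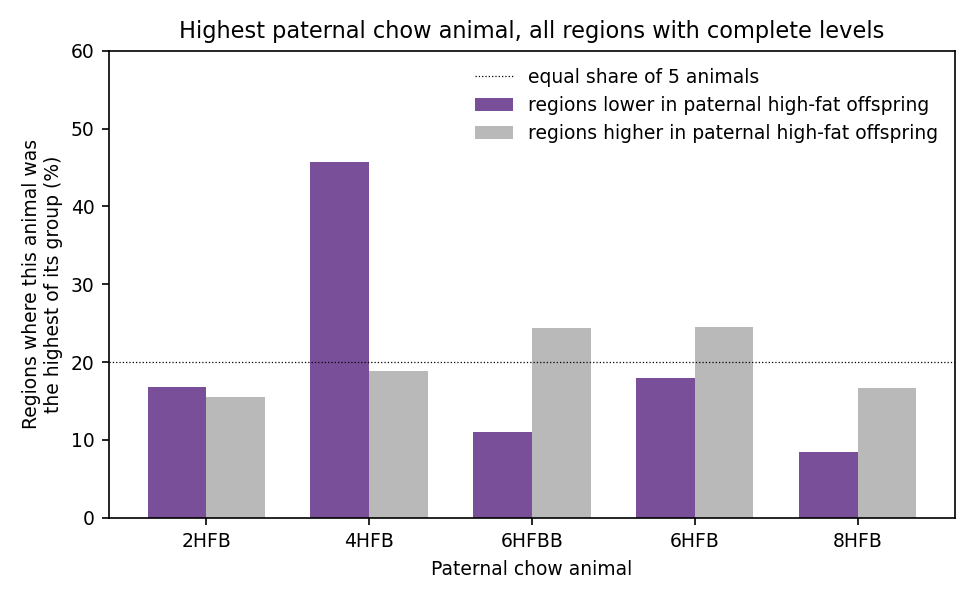
Share of regions (%) at which each paternal chow animal had the highest level of its group, among regions lower (purple) and higher (grey) in paternal high-fat offspring, with complete levels in all animals. The bar of 4HFB is at 45.8% for lower and 18.8% for higher regions.

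Regions of other genes with the nearest levels were looked up among 8830 regions with complete values, by the mean absolute difference over the 10 animals. The nearest to Ntrk2 was a promoter region of Pdss1, with a mean absolute difference of 0.514 points, and next came the promoter of Kdsr (0.519 points). For Maff they were the promoter of Arrdc3 (0.650 points) and exon 1 of Nefm (0.663 points). For Arhgef11 they were intron 1 of Phlpp2 (0.745 points) and an intergenic region named for Rfc3 (0.751 points). For Rtn4rl1 they were an intergenic region named for Ifitm10 (0.927 points) and the promoter of Lrif1 (1.01 points). For the Lbx1 region at +3853 they were an intergenic region named for Ccdc196 (1.36 points) and the promoter of Eif3a (1.40 points). All 10 of these regions were lower in paternal high-fat offspring, and at 9 of them 4HFB was the highest animal of all, which follows from a search for matching levels in the same animals. The nearest region stayed the same in 2 (Arhgef11) to 8 (Lbx1) of the 10 searches that left out 1 animal.

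No region of another gene lay within 10000 bases of the 8 regions. The nearest to the Rtn4rl1 promoter, 23724 bases away, was named for Hic1, a transcriptional repressor gene, and was higher, at 4.53% ± 1.96 against 2.74% ± 1.63 (SD, n = 5 each). The nearest to Maff, 94098 bases away, was named for Csnk1e, a kinase gene of the circadian clock, and was higher, at 2.97% ± 1.05 against 1.38% ± 1.23 (SD, n = 5 each). The homeobox gene Tlx1, a neighbour of Lbx1, had a region 62208 bases from the Lbx1 region at +14120, at 5.53% ± 2.67 against 1.54% ± 1.52 (SD, n = 5 each).

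Genes of the same pathways were taken from lists, with the 5 genes left out. Over all regions 29% were lower and the median difference was 1.41 points. Among neurotrophins, their receptors and adaptors, 19 of 31 genes had 34 regions, 12 lower and 22 higher, with a median difference of 1.61 points. In this list 1 lower and 2 higher regions had separate groups. The p75 neurotrophin receptor gene Ngfr had an intergenic region at −16132 bases with 31.6% ± 7.86 against 28.1% ± 6.94 (SD, n = 5 each), within the spread, and its promoter region at −15 bases had 3.28% ± 2.47 against 3.81% ± 1.34 (SD, n = 5 each). The difference of 3.48 points at the intergenic region went to 0.793 points without 22HFR and to 5.82 points without 2HFB. Sh2b3, an adaptor gene with 1 lower and 2 higher regions, had an intergenic region with 1.91% ± 2.52 against 5.18% ± 3.19, and the promoter of the sortilin-family receptor gene Sorcs2 had 4.52% ± 5.54 against 1.36% ± 0.954 (SD, n = 5 each). The Sorcs2 difference of 3.16 points was 0.795 points without 22HFR, and it turned to −0.255 points with medians in place of means.

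Among Maf and CNC factors and their targets, 8 of 17 genes had 17 regions, 6 lower and 11 higher, with a median of 1.62 points and no separate groups. Mafk, another small Maf gene, had regions on both sides. Its promoter region at +92 bases averaged 0.695% ± 0.575 after paternal high-fat and 4.91% ± 6.78 after paternal chow (SD, n = 5 each). Only these means were close to those of Maff. The paternal chow animals at that promoter ranged from 0.474% to 16.7%, where 4HFB was the highest, and the groups overlapped. Without 4HFB the difference of −4.22 points at the Mafk promoter was −1.28 points. With medians in place of means it was −0.704 points, where that of Maff was −3.31 points. A region in intron 1 of Mafk, at 5251 bases, averaged 19.1% ± 4.85 against 11.9% ± 2.86 (SD, n = 5 each). Mafa, which encodes a large Maf factor, averaged 9.15% ± 3.42 (SD, n = 5) against 4.71% ± 2.60 (SD, n = 4) at its termination site.

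Among G12/13 and RhoA signalling genes, 6 of 24 had 10 regions, 3 lower and 7 higher, with a median of 1.08 points and no separate groups. Arhgef12, a close relative of Arhgef11, was higher at its promoter, with 3.20% ± 3.95 against 1.27% ± 1.07 (SD, n = 5 each). That difference of 1.93 points was within the spread and was 0.460 points without 22HFB. An intergenic region 102224 bases from the Arhgef12 start averaged 1.94% ± 1.81 against 3.53% ± 3.58, or a difference of −1.59 points, which went to −0.0114 points without 4HFB. Gna13, which encodes the G protein subunit that binds these exchange factors, had a promoter region at 3.47% ± 2.76 against 0.893% ± 0.782 (SD, n = 5 each).

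Among Nogo receptors and myelin inhibitors, 6 of 16 genes had 9 regions, 5 lower and 4 higher, with a median of −0.53 points and separate groups at 1 lower region. Rtn4rl2, the other Nogo receptor relative, averaged 3.81% ± 2.27 against 1.83% ± 1.03 in exon 3 of 3 (SD, n = 5 each), the opposite direction to Rtn4rl1, with overlapping groups. Its difference of 1.99 points was 1.24 points without 22HFR. Lingo3, a relative of the Nogo co-receptor Lingo1, averaged 30.4% ± 6.11 against 25.4% ± 5.81 in its intron (SD, n = 5 each), within the spread, a difference of 4.98 points that went to 2.78 points without 22HFB. The lower regions of this list are named as well, a choice made after their values were seen. The region with separate groups was the promoter of the Nogo receptor gene Rtn4r itself, at −11 bases, with 0.318% ± 0.345 against 1.61% ± 1.14 (SD, n = 5 each). Its difference of −1.29 points was −0.797 points without 8HFB. Both Lingo1 regions, at the promoter, were lower, with 1.77% ± 1.97 against 3.45% ± 3.03 at +10 bases and 0.784% ± 0.366 against 1.81% ± 1.04 at −266 bases (SD, n = 5 each). The first difference, −1.69 points, was −0.466 points without 4HFB, and the second, −1.02 points, was −0.620 points without 6HFB. A second Lingo3 region, at +187 bases, had 1.27% ± 1.10 against 2.92% ± 2.16 (SD, n = 5 each), or −1.65 points, and −0.994 points without 6HFB. The remaining lower region was the Ngfr promoter given above, whose difference of −0.53 points was −1.61 points without 28HFB and −0.0391 points without 8HFB.

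Among Lbx1's list of dorsal neural tube patterning factors, 25 of 33 genes had 77 regions, 28 lower and 49 higher, with a median of 1.35 points. Separate groups were found at 1 lower and 4 higher regions. The bHLH factor gene Bhlhe22 averaged 2.78% ± 1.25 against 0.495% ± 1.01 in its only exon, at +604 bases (SD, n = 5 each). A second Bhlhe22 region in that exon, at +692 bases, was lower, at 1.29% ± 0.622 against 2.63% ± 1.41 (SD, n = 5 each). Its difference of −1.33 points was −0.859 points without 6HFBB. A region that the table ties by distance to the proneural gene Neurog2, 59087 bases from its start and in an exon of another transcript, averaged 21.4% ± 5.54 against 10.8% ± 1.36 with separate groups (SD, n = 5 each). The LIM homeobox gene Lhx5 had 11 regions, 10 of them higher, and averaged 16.3% ± 5.99 against 10.3% ± 2.89 in exon 2 of 5 (SD, n = 5 each). None of the regions of the 5 lists had a q-value below 0.05 in the authors' deposited table.

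**Figure D5:**
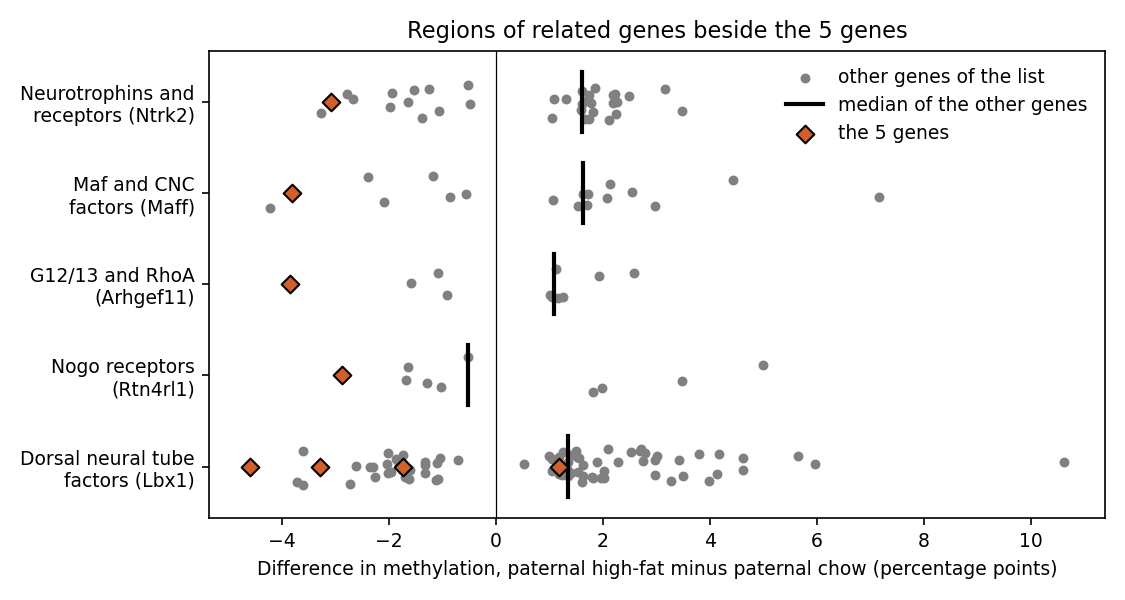
Difference in methylation (paternal high-fat minus paternal chow, percentage points) at every region of the 5 lists (grey, black line at the median) and at the regions of Ntrk2, Maff, Arhgef11, Rtn4rl1 and Lbx1 (diamonds). The list medians lie between −0.53 and 1.62 points, and 7 of the 8 diamonds lie below 0.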

How the data were processed

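Per the labels, reduced representation bisulfite libraries were made from arcuate nucleus DNA with a Zymo-Seq kit. Trim Galore, Bismark and Bowtie are named in the submitters' processing notes. Versions, build and coverage filter: not given in the sources used here. Per the file headers, regions were called with metilene between the 2 groups. The authors deposited a methylation fraction per region and animal, group mean fractions and their difference, and p-values and q-values; each region held at least 10 CpGs. Fractions were multiplied to percent. The group of each column of levels comes from the header above its block, and its name fits no single sample title, so the columns served as 5 replicates per group; 127 of 89570 levels were missing. Coordinates are as the table gives them, with an unknown base of counting. limma (version 3.58.1, R 4.3.3, mean-variance trend, Benjamini-Hochberg over all regions) was tested on simulated data. Tables were handled with Python 3.11.15 and pandas 2.3.3, and figures drawn with matplotlib 3.10.9. The genes and lists were chosen with earlier results of these data known. The text names all regions of the 5 genes. For the region of each gene with the smallest deposited q, it names the 2 regions nearest in level. From each list it names up to 3 regions by deposited q (ties by size of difference). The deposited q was tied at its highest value in 8770 of the 8957 regions, so size of difference decided most of these choices. The lower regions of the Nogo receptor list and a second Bhlhe22 region were added after their values were seen. Alternatives were a logit scale (offset 0.01), other variance models, at least 15 CpGs, autosomes only, medians, the authors' means, averaging columns that share a leading number (6HFB with 6HFBB, 22HFB with 22HFR), and leave-one-out over the animals.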

Additional observations from a re-analysis of the deposited data

Results flagged for a closer look

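The named regions gave 55 groups of 5 animals and 1 of 4. In 10 of these 56 groups, all of 5, 1 animal stood far from the others. Its gap to the nearest animal was over 0.71 of the group's range. For normally distributed values chance gives such a distance in about 1 of 20 groups. These levels cannot fall below 0 and the regions were not picked at random, so 10 of 56 cannot be set against that rate. 4HFB was the far animal in 5 of the 10 groups, all of them paternal chow. It stood at 10.2% at Ntrk2, where the others were at 2.55% to 3.09%, at 13.2% at Arhgef11 (others 2.26% to 2.53%) and at 26.5% at the Lbx1 region at +1917 bases (others 10.1% to 14.5%). It stood at 16.7% at the Mafk promoter (others 0.474% to 4.86%) and at 9.83% at the distant Arhgef12 region (others 0.979% to 2.74%). The paternal high-fat animal 22HFR stood at 5.94% at Rtn4rl1, where the others were at 0.272% to 1.40%. The paternal high-fat animal 28HFB stood at 6.32% at Sh2b3 (others 0% to 1.41%) and at 7.61% at the Ngfr promoter (others 1.74% to 2.80%). The paternal chow animal 8HFB stood at 3.59% at the Rtn4r promoter (others 0.845% to 1.54%). The paternal chow animal 6HFBB stood at 2.30% at Bhlhe22 (others 0% to 0.181%). The part of these animals in the group differences beyond the values without them was not tested.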

How the results depend on the processing

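With limma, 0 regions were called on the logit scale, with the other variance models, on autosomes, at 15 or more CpGs, with averaged columns and without each animal in turn (range 0 to 0). Of the 8 regions, 7 were lower in paternal high-fat offspring with medians, the authors' means, the logit scale, averaged columns and without each animal (range 7 to 7); with at least 15 CpGs, 4 regions remained to be counted, all lower. Separate groups were found at 3 regions, and at 2 with at least 15 CpGs, which leaves out Ntrk2; leaving out or averaging animals cannot make separate groups overlap. The Sorcs2 difference turned to −0.255 points with medians. No paired analysis was possible because the columns of levels carry no replicate number. Depth is unknown, so levels of 0% to 2% have no known counting error.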
